A study of Mus musculus with 4 samples.

Results

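LH-AL-1 is 1 of the 23 clusters of nuclei that the authors made from single nucleus RNA sequencing of mouse kidney cortex, and its name stands for the ascending limb of the loop of Henle. It was taken as cluster number 7 of the deposited table of cluster means, so its members are 4 of the 92 columns, 1 for each of the 4 mice. All 4 mice were male, of mixed strain, carried the TRE-hKLF6 transgene and were fed doxycycline. The Control mouse had TRE-hKLF6 alone and no treatment, and the mouse called Control with AAI had the same genotype and 1 injection of aristolochic acid I, a plant toxin that damages DNA, at 2 mg/kg. The hKLF6OE mouse carried CAG-rtTA together with TRE-hKLF6 and had no treatment, and the mouse called hKLF6OE with AAI had both transgenes and the same injection. The CAG promoter drives rtTA in many tissues, so that human KLF6 is induced throughout the kidney and not in the limb alone. Injected mice were killed 24 hours after AAI. The age of these mice is not given in the sources used here.

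The thick ascending limb reabsorbs salt without water. Its apical cotransporter NKCC2, the product of Slc12a1, brings in sodium, potassium and chloride, the potassium channel ROMK, the product of Kcnj1, recycles potassium to the lumen, and the basolateral sodium pump drives the transport. The voltage this creates drives calcium and magnesium between the cells through claudin pores, of which claudin-16 and claudin-19 form the cation pore of the cortical limb and claudin-10 is the sodium pore found mostly in the medullary limb. The limb is also the source of the urinary proteins uromodulin and epidermal growth factor, the products of Umod and Egf.

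Each value is the mean of a gene over the nuclei of the cluster in 1 mouse, after every nucleus was scaled to a total of 10000 counts, and is called here a normalized value. Differences were taken between log2(value + 1), a scale that understates the change of low genes. With 1 mouse per condition there is no spread between mice, so nothing below is a test and no p-value is given. The number of nuclei behind a column is not used here, and the share of the 19609 genes at exactly 0 ranged from 25.9% to 31.3% in the 4 columns of LH-AL-1.

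Mouse Klf6 had normalized values of 0.348 in Control, 0.444 in Control with AAI, 0.251 in hKLF6OE and 0.435 in hKLF6OE with AAI. It stayed under the minimum of 0.5 in all 4 mice, and since the table has no row for the human transgene, these values do not check the overexpression. Polr2a, which encodes the largest subunit of RNA polymerase II, was at 1.41, 1.89, 1.32 and 1.51 in the same order of mice. Its differences with AAI were 0.27 in control mice and 0.11 in hKLF6OE mice on the log2 scale, and the latter is under the 0.2 used below.

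The promoters of both given markers are shown because these genes define the cluster. Each is the 250 bases before the RefSeq start site on GRCm38.p6, read 5′ to 3′ on the gene's strand, with the HNF1 half-site GTTAAT in capitals, searched on both strands. Slc12a1 lies on the plus strand with the window at chr2:125152350-125152599, and Umod on the minus strand with the window at chr7:119479263-119479512.
Slc12a1: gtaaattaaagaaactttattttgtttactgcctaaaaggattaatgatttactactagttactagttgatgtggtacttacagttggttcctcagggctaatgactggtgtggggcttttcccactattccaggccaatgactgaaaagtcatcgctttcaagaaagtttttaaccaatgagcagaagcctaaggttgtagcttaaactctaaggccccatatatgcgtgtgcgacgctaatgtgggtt
Umod: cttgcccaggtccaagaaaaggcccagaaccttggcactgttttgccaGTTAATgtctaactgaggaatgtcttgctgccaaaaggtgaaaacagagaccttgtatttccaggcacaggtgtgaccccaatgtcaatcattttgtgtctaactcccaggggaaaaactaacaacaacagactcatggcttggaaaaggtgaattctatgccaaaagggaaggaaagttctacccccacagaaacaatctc
Umod held 1 match, which starts 202 bases before the start site, and Slc12a1 held none. The half-site was present in 6.43% of all 32851 promoters of this length, and in 7 of the 69 promoters matched to 54 of the 66 genes that were higher in LH-AL-1. A second motif, TCAAGGTCA, the element bound by estrogen-related receptors, was in neither window and in 0 of these 69 promoters. Of all promoters, 0.387% held it. These matches describe letters in a window and not binding.

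Slc12a1 and Umod were both high in LH-AL-1 in all 4 mice. Slc12a1 was at 217 in Control, 209.7 in Control with AAI, 201 in hKLF6OE and 195 in hKLF6OE with AAI. The remaining 22 clusters averaged between 15.8 and 18.4 per mouse, and Slc12a1 in LH-AL-1 was higher than that average by 3.59, 3.56, 3.38 and 3.54 on the log2 scale. LH-AL-1 had the highest Slc12a1 of all 23 clusters, with a mean over mice of 206, against 156 in LH-AL-2, 125 in LH-AL-3 and 31.4 in EC-1, the highest of the remaining 20 clusters. Umod was at 41.5, 37.3, 30.4 and 38.8, and its mean over mice of 37.0 was near that of LH-AL-2 at 37.5. LH-AL-3 stood at 8.83 for Umod, below the 13.4 of InjuredPT-A, so Umod set the first 2 limb clusters apart from the third. Both genes are the given markers of the limb and the authors clustered the nuclei on expression, so their levels describe the cluster, and Umod does not set LH-AL-1 apart from LH-AL-2.

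The list of 16 limb markers summed to 423, 389, 328 and 387 in LH-AL-1. In LH-AL-2 it summed to 401, 385, 331 and 355, so LH-AL-1 was the highest of all clusters in 3 mice and second to LH-AL-2 in the hKLF6OE mouse. LH-AL-3 held between 196 and 244, and the highest cluster outside the limb, DCT or EC-1, between 66.8 and 95.6. Markers of other cells were also present. The 20 proximal tubule markers summed to 152, 95.7, 171 and 85.8, which is 40.3%, 29.5%, 48.8% and 31.2% of the average sum in the 5 normal clusters of that segment, and none of these 20 was at 0 in all 4 mice. One of them, Kap, named after its values were seen, was at 82.8, 54.2, 104 and 45.2 in LH-AL-1 against 56.4, 47.8, 84.4 and 35.5 in the normal proximal tubule. Kap made up most of the sum of the 20 markers in LH-AL-1 in every mouse, so the percentages above rest largely on this 1 gene. LH-AL-1 ranked 17 among the 23 clusters on this sum, and the lowest cluster outside the limb still held between 62.1 and 126 in each mouse. The share of these values that comes from free RNA was not tested. Markers of the distal convoluted tubule summed to 8.63, 6.42, 21.3 and 7.91, those of podocytes to 9.77, 15.4, 15.6 and 9.82, and those of leukocytes to at most 0.702. In the comparison with LH-AL-2, only 1 of the 6 podocyte markers, Magi2, reached the minimum value in every mouse. The podocyte sum therefore does not show that these markers were present as a set.

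**Figure D1:**
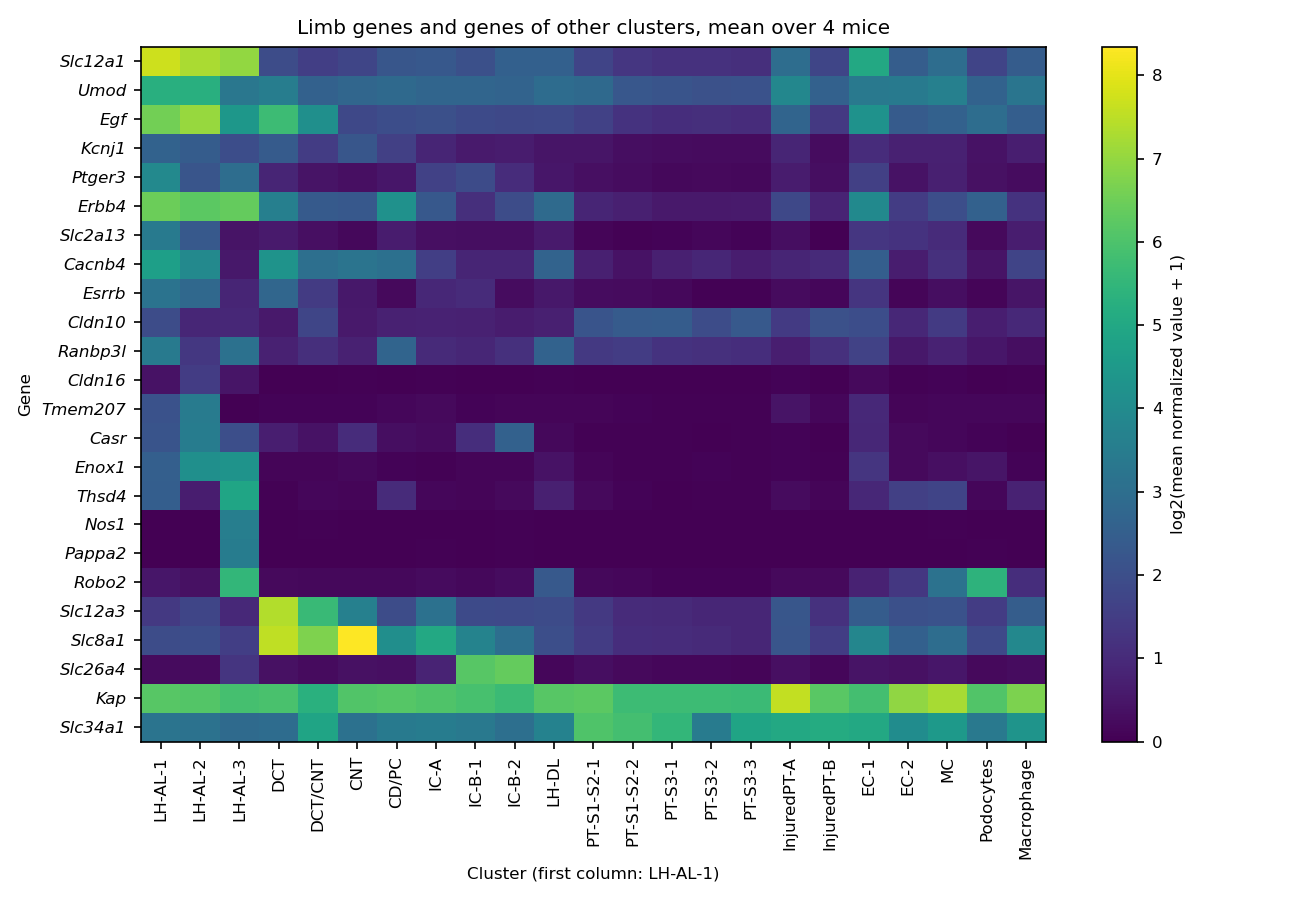
Heat map of log2(mean normalized value + 1) over the 4 mice for 24 genes (rows) in the 23 clusters (columns, LH-AL-1 first). Slc12a1 was 206 in LH-AL-1 and 31.4 in the highest cluster outside the limb, Nos1 and Pappa2 were at 10.9 and 10.5 in LH-AL-3 and under 0.05 in every other cluster, and Kap was spread over all clusters.

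Of 3998 genes with a value of at least 0.5 in LH-AL-1 or in the average of the rest in every mouse, 66 were higher in LH-AL-1 by at least 1 on the log2 scale in each of the 4 mice (1.65%), and 92 were lower (2.3%). The clusters were made from these same values, so the counts describe the cluster and test nothing. LH-AL-1 had the highest mean of all clusters for 41 of the 66 genes and LH-AL-2 for 16. Across 8112 genes the profile of LH-AL-1 was most like that of LH-AL-2 (Pearson's r of 0.97), followed by DCT (0.89), CNT (0.85) and LH-AL-3 (0.85), a description over genes that share libraries and depth.

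Receptors were among the leading genes. Erbb4, a receptor for neuregulins of the epidermal growth factor family, was at 88.7, 96.3, 72.9 and 93.4, higher than the other clusters by 2.75 to 3.21. Ptger3, the prostaglandin E2 receptor EP3 that opposes salt transport in the limb, was at 14.1, 15.4, 12.9 and 14.6, with differences of 2.65 to 3.07. Both genes peaked in LH-AL-1, but the mean of Erbb4 in LH-AL-3, 81.3, was close to its 87.8 here, while Ptger3 in LH-AL-3 was at 6.97 against 14.2.

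Slc2a13, the proton-coupled inositol transporter, was at 10.7, 9.72, 12.6 and 6.56, and was the one gene at least 1 higher, in the mean over mice, than in each of the other 22 clusters, the next being LH-AL-2 at 4.08. Cacnb4, an auxiliary subunit of voltage-gated calcium channels, was at 30.9, 22.1, 24.8 and 21.9, and DCT followed with a mean of 18.4. Esrrb, an orphan nuclear receptor related to the estrogen receptor, was at 8.29, 8.00, 8.69 and 7.40, with means of 6.08 in LH-AL-2, 5.81 in DCT and 0.805 in LH-AL-3. Transcription factors of the tubule were thus shared in part with LH-AL-2, as were the 2 others that passed, Ppargc1a and Sim2.

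The rest of the leading 15 were genes of several kinds. Bckdhb, a subunit of the branched-chain keto acid dehydrogenase, lay between 13.1 and 15.6, and Me3, a mitochondrial malic enzyme, between 9.99 and 12.2. The others were Dnm3, Efna5, Stxbp4, Paqr5, Ank3, Kng2 and Egf, and 3 of them, Egf, Ank3 and Kng2, were higher still in LH-AL-2. Egf was at 117, 92.6, 60.4 and 105, with its lowest value in the hKLF6OE mouse without AAI.

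The 5 genes lowest against the other clusters were markers of other segments. Slc12a3, the thiazide-sensitive cotransporter, was at 1.92, 1.10, 1.29 and 2.19 in LH-AL-1 and had a mean of 167 in DCT. Slc26a4, the pendrin exchanger of type B intercalated cells, was at 0.298, 0.157, 0.148 and 0.148, against a mean of 81.8 in IC-B-2. Slc8a1, the sodium-calcium exchanger of the connecting tubule, was at 4.64, 1.24, 1.15 and 4.14, against a mean of 323 in CNT, and Phactr1 and Lsamp peaked in CNT and IC-B-1 with means of 82.2 and 73.9.

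Of the NaCl transport list, 5 of 12 genes considered were higher, namely Slc12a1, Kcnj1, Slc9a3, Kcnt1 and Slc16a7, and none was lower, with a median difference of 0.93 in Control against -0.03 over all genes. In Control the list median was -0.01 against DCT alone, with 0.05 over all genes. Against LH-AL-2 alone it was 0.05, with 0.02 over all genes. The level of the list as a whole thus did not set LH-AL-1 apart from these clusters. Kcnj1 was steady at 5.13, 5.10, 5.23 and 5.12, and its mean in DCT was 4.29. Among regulators of NKCC2, 3 of 14 were higher, Stk39, Sorl1 and Tmem72, where Stk39 encodes SPAK, the kinase that phosphorylates the cotransporter. The list of paracellular transport gave 1 of 6, Tmem207, that of urinary proteins 3 of 8, Umod, Egf and Kng2, and that of receptors 2 of 18 higher and 1 lower, Pde4b, a phosphodiesterase. Over all genes considered, 1.65% were higher and 2.3% lower. The clusters were made from these values, and the lists of salt transport and urinary proteins hold the given markers Slc12a1 and Umod. These counts are therefore not a result about the lists. The vasopressin receptor Avpr2, through which the hormone raises cyclic AMP in the limb, was between 0.0228 and 0.0915 in all mice, too low to be read here.

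LH-AL-1 and LH-AL-2 were alike in the salt transporter and differed in a small set of genes, among them the claudins Cldn10 and Cldn16. Slc12a1 in LH-AL-1 exceeded that in LH-AL-2 by 0.48, 0.34, 0.35 and 0.41, always in 1 direction but under the 0.5 used here. Of 3506 genes considered, 28 were higher in LH-AL-1 by at least 0.5 in all 4 mice (0.799%) and 31 were lower (0.884%). The authors separated the clusters on these values, so again no test applies.

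Among the genes higher in LH-AL-1 was Cldn10, at 2.65, 2.76, 3.35 and 2.42 against 0.813, 0.479, 1.61 and 0.460 in LH-AL-2. Cacnb2, a calcium channel subunit like Cacnb4, was at 4.81, 4.98, 5.17 and 4.85 against 0.270, 0.873, 0.415 and 0.553. Ptger3 was at 2.13, 4.60, 4.03 and 3.61 in LH-AL-2, so that LH-AL-1 was higher by 1.47 to 2.27. In none of these 3 genes did the values of both clusters overlap, but they were picked as higher in every mouse, so this adds no support.

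Ranbp3l, which encodes a protein that exports SMAD factors from the nucleus, was at 4.60, 8.58, 16.5 and 9.70 against 0.895, 1.93, 2.01 and 1.47. Zfpm2, Sox5, Nrp1, Ralyl and Slc2a13 completed the leading 8, with smallest differences over the mice from 0.74 for Ralyl to 1.28 for Zfpm2. Stk39 was higher as well, between 9.56 and 9.95 against 5.57 to 6.36, and so were Kcnma1, a large-conductance potassium channel, and Esrrg, at 40.3 to 45.9 against 26.3 to 28.2.

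Of the list of paracellular calcium and magnesium transport, 3 of 8 genes considered were lower in LH-AL-1, Cldn16, Tmem207 and Casr, and Cldn10 was higher. Over all genes considered, 0.884% were lower and 0.799% higher. Cldn16 was under 0.5 in LH-AL-1 in every mouse and was considered only through LH-AL-2, so the count is no support for the list. Cldn16 was at 0.352, 0.458, 0.0435 and 0.487 against 1.27, 2.25, 0.830 and 2.76 in LH-AL-2. Casr, the calcium-sensing receptor that restrains transport in the cortical limb, was at 4.12, 3.86, 1.66 and 4.15 in LH-AL-1, and at least 8.48 in every mouse in LH-AL-2. Tmem207 was at 2.21, 3.62, 5.04 and 2.20 against 8.26 to 11.6. All 3 passed as lower in LH-AL-1 in every mouse. In none of them did the values of both clusters overlap, which follows in part from that choice.

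Wnk1, a kinase that activates SPAK, was at 6.70, 5.03, 3.34 and 5.80 against 9.92 to 28.5. Kcnj10, a basolateral potassium channel, lay between 0.238 and 0.413 against 1.30 to 1.81, and Pth1r, the parathyroid hormone receptor, between 1.30 and 2.16 against 2.39 to 4.00. Tmem52b and Nrxn3 led the lower genes, at 0.665 to 0.915 against 5.38 to 7.16, and at 0.122 to 1.06 against 5.05 to 16.1, followed by Itpr2, an inositol trisphosphate receptor, Cadps2, Enox1 and Kctd8. The lower genes thus included a claudin, a potassium channel and both the calcium-sensing and the parathyroid hormone receptor.

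The list of cortical limb genes had 4 of 7 lower in LH-AL-1, Cldn16, Kcnj10, Tmem207 and Enox1, and 1 higher, Thsd4, with medians of -0.75 in Control and -0.70 in Control with AAI against 0.02 and 0.03 over all genes. Over all genes considered, 0.884% were lower and 0.799% higher. Cldn16 and Kcnj10 stayed under 0.5 in LH-AL-1 in every mouse and were considered only through LH-AL-2. Neither the count nor the medians are therefore support for a difference of the list. Cldn19, the partner of Cldn16, was at 0.501, 0.617, 0.498 and 0.563 against 0.703, 0.901, 0.516 and 1.01, and did not pass. Of the medullary list 1 of 6 was higher, Cldn10, with medians of 0.22 and 0.25, and Esrrb and Prox1 did not pass. Thsd4 went against its list, at 1.87 to 6.10 in LH-AL-1 and at most 0.719 in LH-AL-2, and it was highest in LH-AL-3 with a mean of 29.0.

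**Figure D2:**
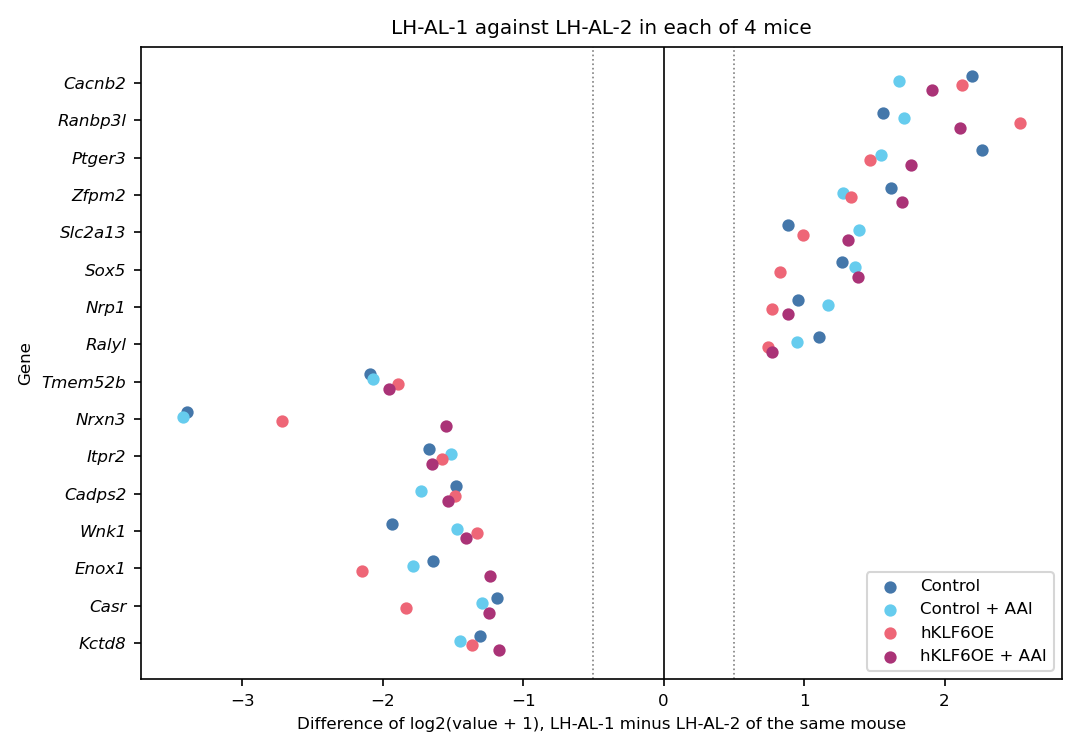
Difference of log2(value + 1) between LH-AL-1 and LH-AL-2 of the same mouse for the 8 leading genes in each direction, with 1 point per mouse and dotted lines at 0.5 and -0.5. The 4 mice lay on 1 side of 0 for every gene shown, and Ranbp3l in LH-AL-1 ranged from 4.60 to 16.5.

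LH-AL-3, the third cluster named for the limb, differed from LH-AL-1 in Nos1, Pappa2 and Robo2, the 3 genes considered of a list of 9 for the macula densa, the plaque of cells at the end of the limb that senses salt. Robo2 was nearly as high in podocytes, with a mean of 40.9 against 44.8 in LH-AL-3, and the other 6 genes of the list did not reach the minimum value in every mouse. Neuronal nitric oxide synthase, Nos1, was at 11.7, 12.9, 5.96 and 13.1 in LH-AL-3 and at 0, 0.0353, 0 and 0 in LH-AL-1. Pappa2, a protease of the macula densa, had a mean of 10.5 in LH-AL-3 and 0.00852 in LH-AL-1, and Robo2 a mean of 0.423 in LH-AL-1. With such low values there, the 3 genes reached the minimum through LH-AL-3, so their number supports nothing about the list. Of 3543 genes considered, 127 were higher (3.58%) and 101 lower (2.85%) in LH-AL-1 by at least 0.5 in all mice, and Slc12a1 was among the higher ones. From the distal convoluted tubule, 151 of 3539 genes were higher (4.27%) and 122 lower (3.45%), Slc12a1 by 5.57 to 5.86.

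With AAI, Chd9, Egr1, Ccng1 and Gdf15 were higher in LH-AL-1 of both genotypes, and all 11 mitochondrially encoded genes considered and 11 of 20 proximal tubule markers were lower. Control with AAI was compared with Control, and hKLF6OE with AAI with hKLF6OE, and these 2 pairs share no mouse. Of 4010 genes considered, 274 were higher by at least 0.2 in both pairs (6.83%) and 238 were lower (5.94%). After each pair was centred on its median over genes, which was 0.01 in control and 0.05 in hKLF6OE mice, the counts were 206 higher and 286 lower, so the split by direction depends on the scaling. Taken alone, the control pair had 18.4% of its genes higher and 16.6% lower, and the hKLF6OE pair 23.5% and 19.4%. The genes higher in both were 37.8% of those higher in the control pair and 28.6% of those higher in the hKLF6OE pair, and the lower ones 37.6% and 33.1%. A further 67 genes were higher in control and lower in hKLF6OE mice, and 104 the reverse. Across genes the 2 pairs gave a Pearson's r of 0.31, over genes that are not independent.

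Chd9, a chromatin remodeler, was at 1.52 in Control, 12.7 in Control with AAI, 2.43 in hKLF6OE and 7.07 in hKLF6OE with AAI, with differences of 2.44 and 1.23. Egr1, an immediate early transcription factor, was at 0.246, 1.96, 0.0754 and 1.68, with differences of 1.25 and 1.32. They were the only 2 genes higher by at least 1 in both pairs. In both genes the AAI-treated mice of either genotype lay above both untreated mice, which follows in part from their choice as higher in both pairs. Chd9 was also higher in all 22 other clusters and Egr1 in 20, so neither is particular to the limb.

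Of the list of 40 p53 target genes, 7 were considered and 4 were higher in both pairs, Ccng1, Mdm2, Trp53inp1 and Gdf15. The other 33 did not reach the minimum value in both pairs, and 5 of the 7, Ccng1, Trp53inp1 and Gdf15 among them, reached it in at least 1 pair only through the AAI-treated mouse, so these counts support nothing about the list. Without a minimum, the medians over the 38 members not at 0 were 0.09 in control and 0.13 in hKLF6OE mice, against -0.000928 and -0.00601 over 14048 genes. Ccng1, cyclin G1, was at 0.340, 1.13, 0.189 and 1.18, and was higher in all 22 other clusters. Trp53inp1, a cofactor of p53 in stress, was at 0.321, 0.910, 0.186 and 1.18, and Gdf15, a secreted stress cytokine, at 0.0598, 0.655, 0.0245 and 0.521. Each of the 3 was higher in both AAI-treated mice than in either untreated mouse, which follows in part from their choice. Trp53inp1 and Gdf15 were also higher in 19 other clusters.

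Junb, of the AP-1 family, was at 0.0393, 0.671, 0.103 and 0.886. With Egr1, Ier3 and Klf13 it made 4 of the 7 genes considered of a list of 28 immediate early genes and Krüppel-like factors. Junb, Egr1 and Ier3 likewise reached the minimum in at least 1 pair only through the treated mouse, and without a minimum the medians over 26 members were 0.04 and 0.08. Of the clock genes, 4 of 11 considered were higher, Per1, Per2, Tef and Bhlhe40, of which Per1 and Bhlhe40 reached the minimum in that way, and the medians without a minimum were 0.04 and 0.03 over 18 members. Neither count is support for a change of its list. Bhlhe40 was at 0.562, 1.14, 0.275 and 1.17, and the hour at which the mice were killed is not given in the sources used here.

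The other leading higher genes were Catspere2, Exoc4, Cdh20, Fkbp5, Tob1 and Gm16685. Fkbp5, a chaperone induced by glucocorticoids, was at 2.64, 4.56, 2.03 and 4.54, higher in 9 other clusters. Cdh20, a cadherin of cell adhesion, was at 0, 0.983, 0.478 and 1.27, and reached the minimum in both pairs only through the treated mouse. It passed in none of the other 22 clusters, but LH-AL-2 differed by 0.58 in control and -0.12 in hKLF6OE mice. In the normal proximal tubule Cdh20 was at most at 0.0138. The change is therefore not shown to be particular to LH-AL-1. Gm16685 is annotated as an antisense transcript, and reads from it and from the gene it overlaps may not be told apart.

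Ndrg1, a stress-responsive gene of differentiation, was at 5.58, 1.94, 5.48 and 1.52, with differences of -1.16 and -1.36, and was lower in all 22 other clusters. Ass1, argininosuccinate synthase of arginine synthesis, was at 2.65, 0.775, 3.17 and 0.603. Akr1c21, an aldo-keto reductase, was at 2.28, 0.478, 1.74 and 0.367. These 3 and Tenm2 were the 4 genes lower by at least 1 in both pairs. In each the treated mice lay below the untreated, which follows in part from that choice.

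Most of the leading lower genes had higher levels in the proximal tubule or were lower in nearly every cluster. Miox, the first enzyme of inositol breakdown and a proximal tubule gene, was at 4.03, 1.91, 5.09 and 1.05 in LH-AL-1 and at 8.79, 3.76, 8.64 and 2.33 in the normal proximal tubule. Nat8f1 was lower in all 22 other clusters, and Inmt, Cndp2, Miox and Acy3 in 21 each. Of the 238 lower genes, 55 (23.1%) had more than 2 times the LH-AL-1 level in the normal proximal tubule without AAI, against 8.88% of all genes considered and 6.57% of the higher genes. The proximal tubule markers given above were lower with AAI in sum, and 11 of the 20 passed. Their part in these differences was not tested. Without all genes of that kind, 256 genes were higher and 183 lower.

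Tenm2, a teneurin of cell contacts, was at 1.73, 0.282, 5.44 and 0.121, with differences of -1.09 and -2.52. It passed as lower in 2 other clusters, and these were the other limb clusters: LH-AL-2 differed by -0.24 and -1.52, and LH-AL-3, at 19.1, 1.32, 14.5 and 1.63, by -3.11 and -2.56. Dlgap1, a scaffold protein best known from synapses, was at 2.83, 0.920, 2.31 and 0.790, and LH-AL-2 was the 1 other cluster in which it passed as lower, by -0.31 and -1.15, and it passed as higher in 1 cluster. Their levels in the normal proximal tubule were at most 0.0313 for Tenm2 and 0.242 for Dlgap1.

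**Figure D3:**
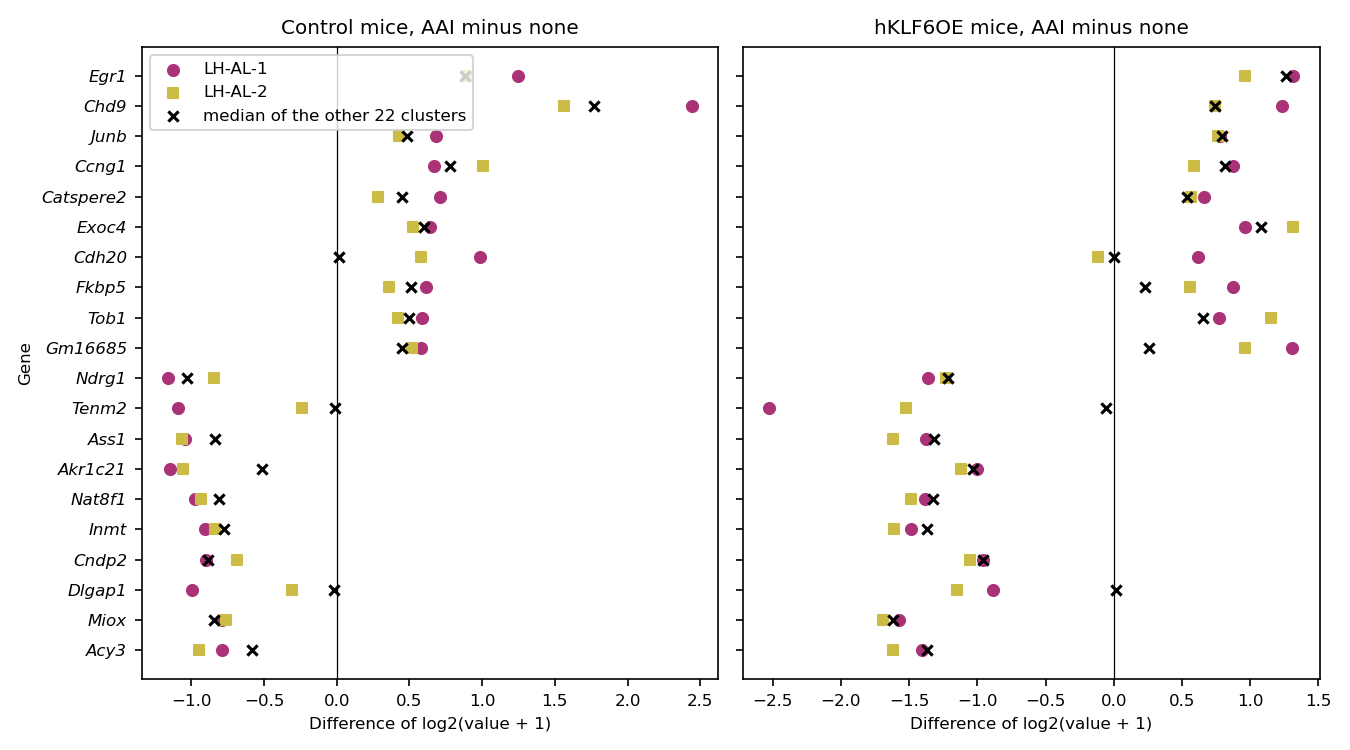
Difference of log2(value + 1) with AAI for the 10 leading genes in each direction, in control mice (left) and hKLF6OE mice (right), for LH-AL-1 (circles), LH-AL-2 (squares) and the median of the other 22 clusters (crosses). The crosses lay near 0 for Cdh20, Tenm2 and Dlgap1 and near LH-AL-1 for genes such as Ndrg1, which was lower in all 22 other clusters.

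All 11 mitochondrially encoded genes considered were lower in both pairs, with medians of -0.55 in control and -1.36 in hKLF6OE mice. mt-Atp6, a subunit of ATP synthase, was at 40.6, 23.3, 56.6 and 15.7. The summed share of the 13 mitochondrially encoded genes in LH-AL-1 was 2.54%, 1.59%, 3.33% and 1.35%. In LH-AL-2 it was 2.22%, 1.24%, 3.02% and 1.20%. It was lower with AAI in every other cluster of both genotypes, except DCT/CNT in control mice, and so is not particular to LH-AL-1. In nuclei such transcripts are a measure of carried-over cytoplasm, and this share was lower with AAI in both genotypes, a feature whose part in other differences was not tested.

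Salt transport genes showed 1 higher and 1 lower among 14 considered, near the shares over all genes of 6.83% and 5.94%, with medians of -0.06 and -0.04. Kcnj16, a basolateral potassium channel subunit, was at 3.91, 5.16, 3.93 and 6.45, and passed as higher in 2 other clusters. Fxyd2, the gamma subunit of the sodium pump, was at 12.7, 9.23, 14.3 and 9.63, and was lower in 17 other clusters. Slc12a1 differed by -0.05 and -0.04, and Kcnj1 by -0.01 and -0.03. None of the 13 regulators of NKCC2 and none of the 7 paracellular transport genes passed.

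Among receptors Nr3c2, the mineralocorticoid receptor, was at 6.75, 8.54, 5.41 and 8.50, and Thrb, a thyroid hormone receptor, was higher too, with differences of 0.39 and 0.21. Pth1r, at 2.16, 1.30, 1.77 and 1.37, and the glucagon receptor Gcgr, at 1.87, 1.39, 1.43 and 1.08, were lower, so 2 of 15 passed in each direction. Of the transcription factors Tfap2b and Irx1 were higher and Hnf4a, a factor of the proximal tubule, lower, of 16. Tfap2b was at 2.94, 3.54, 3.60 and 4.36.

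Spp1, osteopontin, was at 2.82, 6.06, 4.98 and 6.46, with differences of 0.89 and 0.32, and was the 1 of 8 urinary proteins that passed. With Il34 it made 2 of 6 tubular injury genes considered. Havcr1, the gene of kidney injury molecule 1, was at 0, 0.0824, 0 and 0.0277, and Lcn2 at 0, 0, 0.0115 and 0.0231, both too low to be read. Of 11 heat shock genes Hspa8 was lower, at 3.80, 2.23, 5.68 and 1.83, and Hsp90b1 higher, and Canx was the 1 of 8 endoplasmic reticulum stress genes that was higher. Counts of 1 or 2 genes in such short lists, those of receptors, transcription factors and injury genes included, stand beside 6.83% higher and 5.94% lower over all genes and are not a result about the lists.

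Genes lower with AAI were shorter than the genes considered. Of the 235 with a span in the GENCODE annotation of GRCm38, 61.3% were under 30 kb, against 28.4% of all genes considered, and the median span was 20.6 kb against 56.5 kb. The genes higher with AAI had 20.8% under 30 kb and 37.2% over 100 kb, against 29.0% of all over 100 kb. At a threshold of 0.5, 38.9% of the 18 higher genes were under 30 kb, above the 28.4% of all. For the higher genes the direction thus depends on the threshold. Among lower genes without a high proximal tubule level, 66.1% were under 30 kb. Genes are not replicates, so these shares are descriptions.

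**Figure D4:**
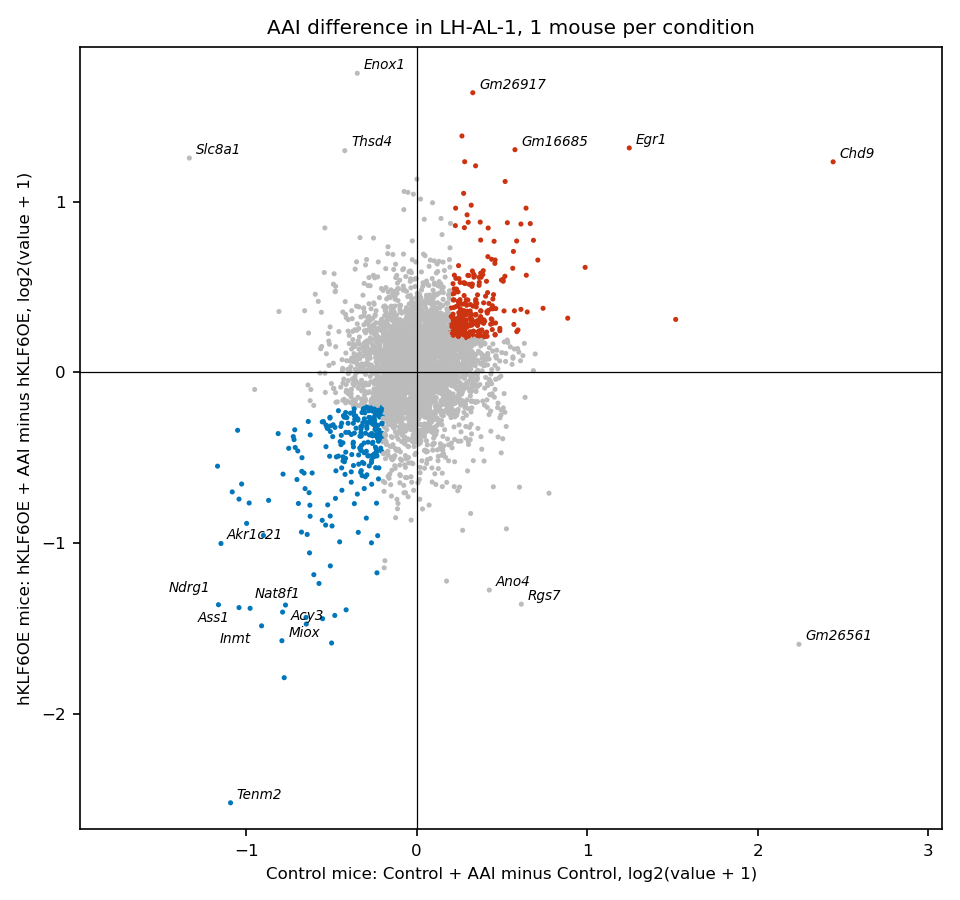
Difference with AAI in LH-AL-1 for 4010 genes, control mice on the x axis and hKLF6OE mice on the y axis, both as differences of log2(value + 1), with red points for the 274 genes higher and blue points for the 238 lower in both pairs. Chd9 and Egr1 lay far out in the upper right, and Gm26561 and Slc8a1 in the quadrants of opposite direction.

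Between genotypes fewer genes differed in the same direction with and without AAI. hKLF6OE was compared with Control, and hKLF6OE with AAI with Control with AAI. Of 3855 genes considered, 48 were higher in both pairs by at least 0.2 (1.25%) and 88 were lower (2.28%), while 116 were higher without AAI and lower with it and 128 the reverse. Centred on the medians over genes, -0.05 without and -0.01 with AAI, the counts were 68 higher and 54 lower, so here the split by direction turns with the scaling. Taken alone, the pair without AAI had 13.6% of its genes higher and 20.8% lower, and the pair with AAI 10.6% and 15.3%. The r across genes was -0.18, over pairs that share no mouse. Of the 502 genes considered that were higher without AAI, 48 were also higher with it and 116 were lower. Of the 791 that were lower without AAI, 88 were also lower with it and 128 were higher. Opposite directions were thus more common than the same one. The genes named below as higher or lower in both pairs carry this limit.

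Pck1, the key enzyme of glucose synthesis, was at 1.66, 0.692, 4.32 and 2.32, higher in hKLF6OE by 1.00 and 0.97, and it was higher in all 22 other clusters. In the normal proximal tubule, where it is at home, it was at 4.02, 4.77, 9.79 and 10.0. S100g, calbindin-D9k, which binds calcium in the distal tubule, was at 0.993, 0.782, 2.65 and 1.37, and passed in 16 other clusters. Ubash3b, at 1.00, 1.03, 3.02 and 1.73, passed as higher in 3. Klk1, tissue kallikrein, was higher as well, at 2.14, 2.24, 3.67 and 3.17.

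Rps29, Cox6c, mt-Nd5 and Rpl41 were also among the leading 10, genes of the ribosome and of respiration. Taken by symbol, a grouping chosen after values were seen, 26 of 32 cytosolic ribosomal protein genes were higher in hKLF6OE without AAI, with a median of 0.35, against 3 higher and 8 lower with AAI, with a median of -0.07. Nuclear genes of oxidative phosphorylation gave 33 of 47 higher without AAI, with a median of 0.25, against 6 higher and 5 lower with AAI. In both groups 3 genes passed in both pairs. With AAI, 30 of 34 ribosomal and 36 of 48 oxidative phosphorylation genes were lower in hKLF6OE mice. In control mice 5 and 8 were lower, and 7 and 1 higher. The hKLF6OE mouse without AAI enters both comparisons, so a difference of that mouse cannot be told apart from one of genotype or AAI. The mitochondrially encoded share was also highest in the hKLF6OE mouse without AAI, and its part was not tested.

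Lower in hKLF6OE were Cntn5, a contactin, at 1.05, 1.31, 0.373 and 0.262, and Itgav and Itgb6, the integrin chains that together activate TGF-beta. Itgav was at 2.23, 2.48, 1.16 and 1.54, and Itgb6 at 4.48, 4.17, 3.02 and 2.79. Both hKLF6OE mice lay below both control mice for each of these 3 genes, which follows in part from their choice as lower in both pairs. Itgb6 was also lower in LH-AL-2, where it was at 9.04, 6.73, 4.92 and 4.44, and in both type B intercalated clusters. Cntn5 passed as lower in LH-AL-3 and Itgav in DCT, and in no other cluster.

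Lrrc31 and Lrrc66, leucine-rich repeat genes that were also among the 66 of the cluster, were at 4.53, 3.51, 1.98 and 2.32 and at 2.88, 2.68, 1.88 and 1.72. Wwox, Keg1, Rab11fip3, Crebrf and Gm3336 completed the leading 10, and Keg1, a proximal tubule marker, was lower in 16 other clusters. Of the lists, Pax2, Pax8 and Tfap2b were higher among 14 transcription factors, Pax2, a factor of kidney development, at 3.94, 4.51, 6.31 and 5.60. The medians of the transcription factor list were 0.05 without and -0.03 with AAI. Kcnt1 of the salt transport list, Kng2, Gcgr, Rora and Itgb6 were lower in both pairs. These counts stand beside 1.25% higher and 2.28% lower over all genes, and in such short lists they are not a result about the lists.

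The difference with AAI ran in opposite directions in the genotypes for several genes, of which Enox1, Thsd4, Ranbp3l and Tmem207 also differed between LH-AL-1 and LH-AL-2. Enox1 was at 6.49 in Control, 4.89 in Control with AAI, 1.23 in hKLF6OE and 6.53 in hKLF6OE with AAI, with differences of -0.35 and 1.75. Thsd4 differed by -0.42 and 1.30, and Slc8a1 was at 4.64, 1.24, 1.15 and 4.14. In all 3 the hKLF6OE mouse without AAI was the lowest. In the opposite sense, Ranbp3l was at 4.60, 8.58, 16.5 and 9.70 and Tmem207 at 2.21, 3.62, 5.04 and 2.20, with that mouse highest.

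Gm26561, a long intergenic noncoding RNA, was at 0.437, 5.80, 6.58 and 1.51, with differences of 2.24 and -1.59. Rgs7 was at 0.110, 0.698, 2.44 and 0.340, Ano4 at 1.14, 1.88, 3.77 and 0.971, and Nrxn3 at 0.629, 0.122, 0.147 and 1.06. Gm26917 was higher with AAI in both genotypes, at 1.02, 1.54, 0.676 and 4.22, but by 0.33 against 1.64. Casr, given above, and Egf followed Enox1, with their lowest values in the hKLF6OE mouse without AAI. With 1 mouse per condition, a difference between mice cannot be told apart from one of genotype or AAI.

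LH-AL-2 of the same mice repeated this in part. Enox1 there was at 22.4, 19.3, 8.87 and 16.8, Egf at 164, 132, 104 and 127, and Ano4 at 0.938, 0.877, 3.06 and 0.617, each with the hKLF6OE mouse without AAI at the extreme. Slc8a1 in LH-AL-2 had another order, with 1.89 in Control and 4.33 in Control with AAI. In CNT, where it is highest, Slc8a1 was at 366, 292, 223 and 412, and Control and hKLF6OE with AAI were again the higher mice, as in 10 of the other 22 clusters. The sum of the connecting tubule and principal cell markers in LH-AL-1, Slc8a1 included, was 5.73, 2.52, 2.73 and 5.30, and none of its 9 genes was at 0 in all mice. Its part in the Slc8a1 values was not tested.

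**Figure D5:**
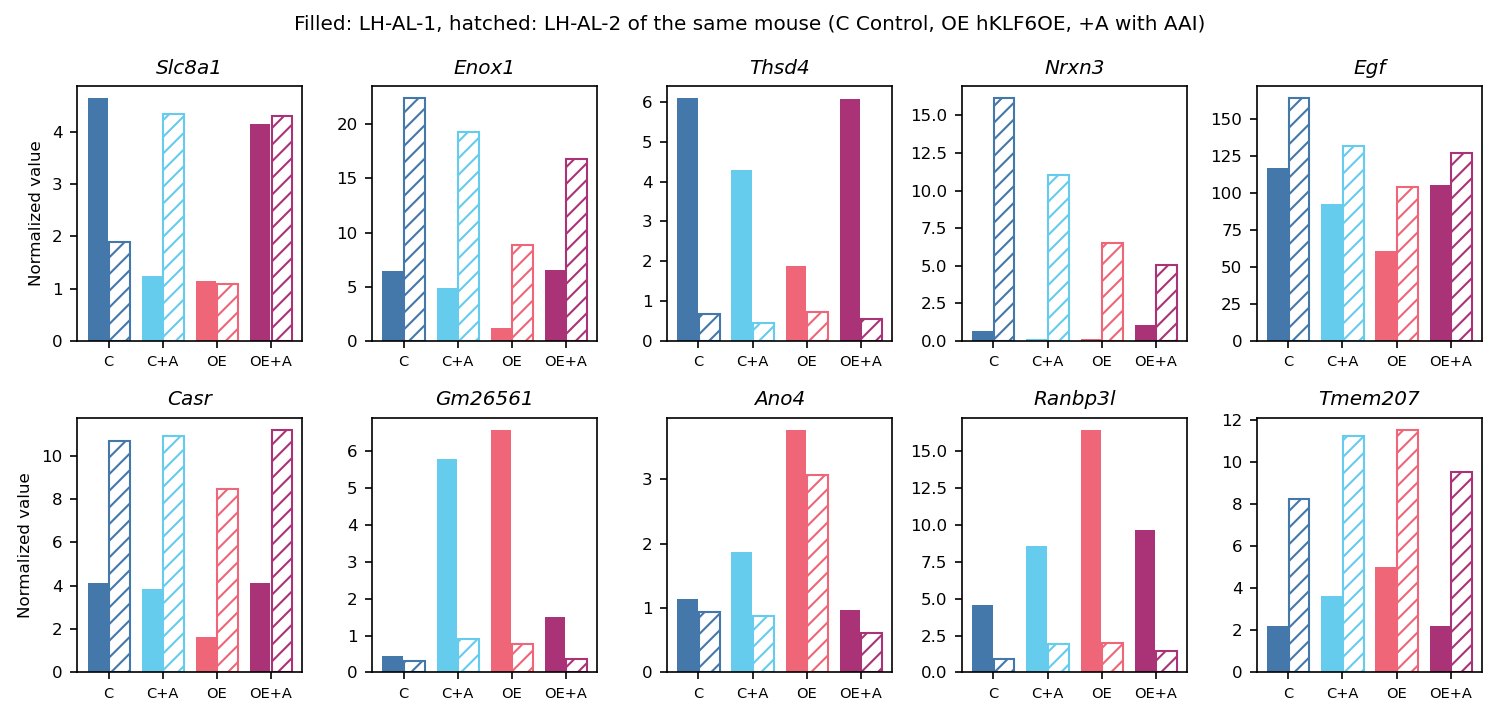
Normalized values in each of the 4 mice (C Control, C+A Control with AAI, OE hKLF6OE, OE+A hKLF6OE with AAI) for 10 genes, with filled bars for LH-AL-1 and hatched bars for LH-AL-2, each panel on its own axis from 0. In LH-AL-1 the hKLF6OE mouse without AAI was lowest for Enox1 at 1.23 and highest for Ranbp3l at 16.5.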

How the data were processed

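Kidney cortex nuclei of 4 male mice were sequenced on the 10x platform, with 1 mouse per group, and the 4 libraries were prepared together. Cell Ranger, Seurat and the mm10 genome are named in the submitters' processing notes. The authors counted reads on a pre-mRNA reference, which includes introns, filtered nuclei on genes and mitochondrial share, and clustered them. How doublets were handled is not given in the sources used here. The deposited signal values are linear: the authors scaled each nucleus to 10000 and took the average within a cluster, separately for each mouse. The number of nuclei and the depth behind each column are not used here, which leaves counting error without an interval. Whether these 4 mice stand for their groups cannot be measured.

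Of 19632 gene rows, 23 with date-like names were left out. Clusters were named by the order of sheets in the study's marker table. Differences of log2(value + 1) were taken for genes with at least 0.5 on 1 side in every pair, and counted at 1 against the mean of the other clusters, 0.5 against single clusters and 0.2 between conditions, in the same direction in every mouse or pair. No test was run. The values of 1 gene are not reported here. A gene is called considered when it passed the minimum. Named genes were the given markers, the 15 highest and 5 lowest against the other clusters, 8 in each direction against LH-AL-2, 10 in each direction with AAI and genotype, 5 in each direction for the difference of the AAI change, Klf6, Polr2a and members of the lists. There were 16 pathway and 10 marker lists. The cluster, the lists and the rules were chosen with earlier results of these data known. Spans came from GENCODE M21 on GRCm38, held by 19315 genes. Alternatives were a pseudocount of 0.1, no minimum or one of 2, other thresholds, centring, no mitochondrially encoded genes, single pairs and the mean over mice. The runs without each mouse, and without genes high in the proximal tubule, were chosen after seeing the data. The counting was tested on simulated data. Python 3.11.15, numpy 2.4.6, pandas 2.3.3 and matplotlib 3.10.9 were used.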

Additional observations from a re-analysis of the deposited data

Results flagged for a closer look

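For 19 of the genes named, LH-AL-1 differed with AAI by at least 0.2 in opposite directions in the 2 genotypes, which each rest on 1 mouse per condition, and the difference was not tested. Among all 4010 genes considered, 67 were higher with AAI in control and lower in hKLF6OE mice by at least 0.2, and 104 the reverse. Slc8a1, Enox1, Thsd4, Nrxn3, Gm26561, Rgs7, Ano4, Ranbp3l and Tmem207 were picked for the size of this difference between genotypes. The count of 19 follows in part from that choice. The value given is the AAI difference in hKLF6OE mice minus that in control mice, on the log2(value + 1) scale. It was positive, with higher values after AAI in hKLF6OE mice and lower ones in control mice, for Slc8a1 (2.59), Enox1 (2.10), Thsd4 (1.72), Nrxn3 (1.39), Egf (1.12), Sfrp1 (1.01), Wnk1 (1.00), Slc12a3 (0.95), Prkaa2 (0.64), Rarb (0.51) and Klf9 (0.45).

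It was negative for Gm26561 (-3.84), Rgs7 (-1.97), Ano4 (-1.70), Ranbp3l (-1.48), Tmem207 (-1.44), Prox1 (-0.78), Wfdc15b (-0.68) and Cab39l (-0.55). Sfrp1, a secreted Wnt antagonist, was at 2.73, 1.66, 0.830 and 1.62 in Control, Control with AAI, hKLF6OE and hKLF6OE with AAI. The hKLF6OE mouse without AAI had the lowest or the highest of the 4 values for several of them, as for Enox1, Thsd4, Egf, Sfrp1, Wnk1, Ranbp3l and Ano4.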

How the results depend on the processing

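No paired analysis was possible because each group has 1 mouse and no result comes from a test. The values rest on 1 mouse per condition and on a number of nuclei per column that is not used here, and low genes depend most on the pseudocount. With a pseudocount of 0.1 the counts of genes higher and lower were 145 and 338 against the other clusters, 53 and 54 against LH-AL-2, 589 and 479 with AAI, and 171 and 341 between genotypes. With a minimum value of 2 they were 113 and 71 with AAI, 9 and 20 between genotypes, and 19 lower against LH-AL-2. Centring left 54 lower between genotypes. At a threshold of 2 against the other clusters they were 8 and 6, at 1 against LH-AL-2 they were 4 and 13, at 0.5 they were 18 and 42 with AAI and 1 and 1 between genotypes (Pck1 and Cntn5), and at 1 they were 2 and 4 and 0 and 0. The mean over the 4 mice gave 103 and 150 against the other clusters and 67 and 60 against LH-AL-2, and a difference of 1 from every other cluster gave 1 (Slc2a13) and 0. Without each mouse in turn, the counts were 68 to 78 higher and 96 to 103 lower against the other clusters, and 32 to 34 and 33 to 41 against LH-AL-2. Single pairs gave 816 and 736 (control) and 1017 and 836 (hKLF6OE) with AAI, and 596 and 909 (without AAI) and 450 and 649 (with AAI) between genotypes. Of 60 list medians, 12 were at least 0.2 in size, 26 with a pseudocount of 0.1, and 6 of 64 without a minimum. Genes under 30 kb made up 71.4% of lower and 38.9% of higher genes at a threshold of 0.5. No named gene changed direction under centring or leaving out mitochondrially encoded genes. A pseudocount cannot change the direction of a difference, only its size. With a pseudocount of 0.1 the smallest difference moved by at least 0.2 for 53 named genes and by less for 23.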
